A study of Mus musculus with 8 samples.

Results

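Mitochondrial ribosomal protein (mitoribosomal protein) genes were examined by RNA sequencing of tibialis anterior (TA) muscle from wild-type (WT) and Klotho-deficient (KL-/-) mice. The members were taken by symbol alone, as all counted genes named Mrpl or Mrps followed by a digit, which gave 77 of 12551 genes, 48 of them Mrpl and 29 Mrps. There were 8 libraries, 4 per genotype, from whole TA muscles of male mice aged 7 weeks. WT mice were Klotho wt/wt and KL-/- mice were Klotho null/null. Both came from crosses of heterozygous Klotho mice on a mixed genetic background, so the mutant carries the null allele in every tissue and an effect that arises in muscle cannot be told apart from a systemic one. Nothing states which mice shared a litter, and p-values measure the spread between the 4 mice sampled per genotype.

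Mitoribosomes translate the few proteins encoded by mitochondrial DNA, which are core subunits of the respiratory chain and the ATP synthase. Their RNA comes from mitochondrial DNA, but each of their proteins is encoded in the nucleus, made on cytosolic ribosomes and imported. Some of the proteins descend from bacterial ribosomal proteins and others were added in mitochondria. Skeletal muscle relies on the respiratory chain for sustained work, and inherited defects of several mitoribosomal proteins cause combined respiratory chain deficiencies. By structure, 50 of the genes encode large-subunit proteins, 26 small-subunit proteins, and *Mrps36* encodes a component of the oxoglutarate dehydrogenase complex despite its name. *Mrps30* and *Mrps18a* are named for the small subunit but their proteins sit in the large one. *Kl* itself and the genes of mitochondrial DNA were not analysed here.

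Libraries held 20860262 to 26501093 counts in WT and 22061526 to 29273758 in KL-/- muscle, which put the floor of 3 counts at 0.105 to 0.143 counts per 1000000 (CPM). The lowest count of any mitoribosomal gene in any library was 188. Each of the 12 pairs of libraries within a genotype differed by more than sampling noise. KL-/- replicate 2 stood apart, with a chi-square per gene of 60.3 to 84.4 against the other KL-/- libraries, which differed among themselves by 17.8 to 27.8 (9.91 to 45.9 among WT libraries). A later batch date is given for KL-/- replicate 3 alone, and the other 7 libraries share 1 date. The 8 myofibre markers, among them *Ckm* and *Acta1*, summed to between 136400 and 157100 CPM in WT and between 163700 and 213800 CPM in KL-/- libraries. In whole muscle, fewer cells of a type and less RNA per cell cannot be told apart.

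As a group, mitoribosomal protein transcripts were at nearly the same level in both genotypes, while those of the cytosolic ribosome were higher in KL-/- muscle. The 77 genes summed to 3268 ± 101.3 CPM in WT (SD, n = 4; 3119 to 3345) and to 3287 ± 139.3 CPM in KL-/- muscle (SD, n = 4; 3129 to 3433), a ratio of 1.006, and the ranges overlapped. The median log2 fold change (KL-/- over WT) was -0.00075 over the 77 genes and -0.016 over all genes tested. Of the 77 genes, 38 had a positive and 39 a negative value, and the range was -0.36 to 0.28. None was called higher and 4 (5.2%) were called lower by edgeR's quasi-likelihood test at a Benjamini-Hochberg false discovery rate (FDR) under 0.05, beside 7.35% of all genes called higher and 6.67% called lower. The share called lower was thus close to the background. At an unadjusted p under 0.05, 8 members (10.4%) were higher and 9 (11.7%) lower, beside 15.8% and 16.4% of all genes. DESeq2 and limma-voom each called 1 member higher, *Mrpl23*. Levels here are scaled with TMM factors (trimmed mean of M values). When libraries were scaled to their totals instead, the median of all genes moved from -0.016 to -0.13, that of the members moved to -0.12, and 16 members (20.8%) were called lower and none higher, beside 16.9% and 3.92% of all genes. Relative to all genes the members then stood at 0.0154, against 0.0152 with TMM factors. The overlap of the summed levels also depended on the scaling. As a share of library totals, the members made up 0.3287% to 0.3483% in WT and 0.2972% to 0.3278% in KL-/- libraries, without overlap.

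Most differences were small. In 67 of 77 genes (87.0%) the log2 fold change was under 0.2 in size, against 53.8% of all genes tested. Nuclear-encoded respiratory subunits were alike in this, with 74 of 81 (91.4%) under 0.2 and a median SE of 0.078. For 76 of 77 genes (98.7%) the interval of 2 SE around the fold change lay within 0.5 log2 units of 0, against 58.9% of all genes, and the exception was *Mrps2*. Their median SE was 0.072 (0.053 to 0.12), against 0.11 over all genes. Their median coefficient of variation over 4 libraries was 5.3% in WT and 6.4% in KL-/- muscle, against 9.9% and 11.1% over all genes.

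**Figure D1:**
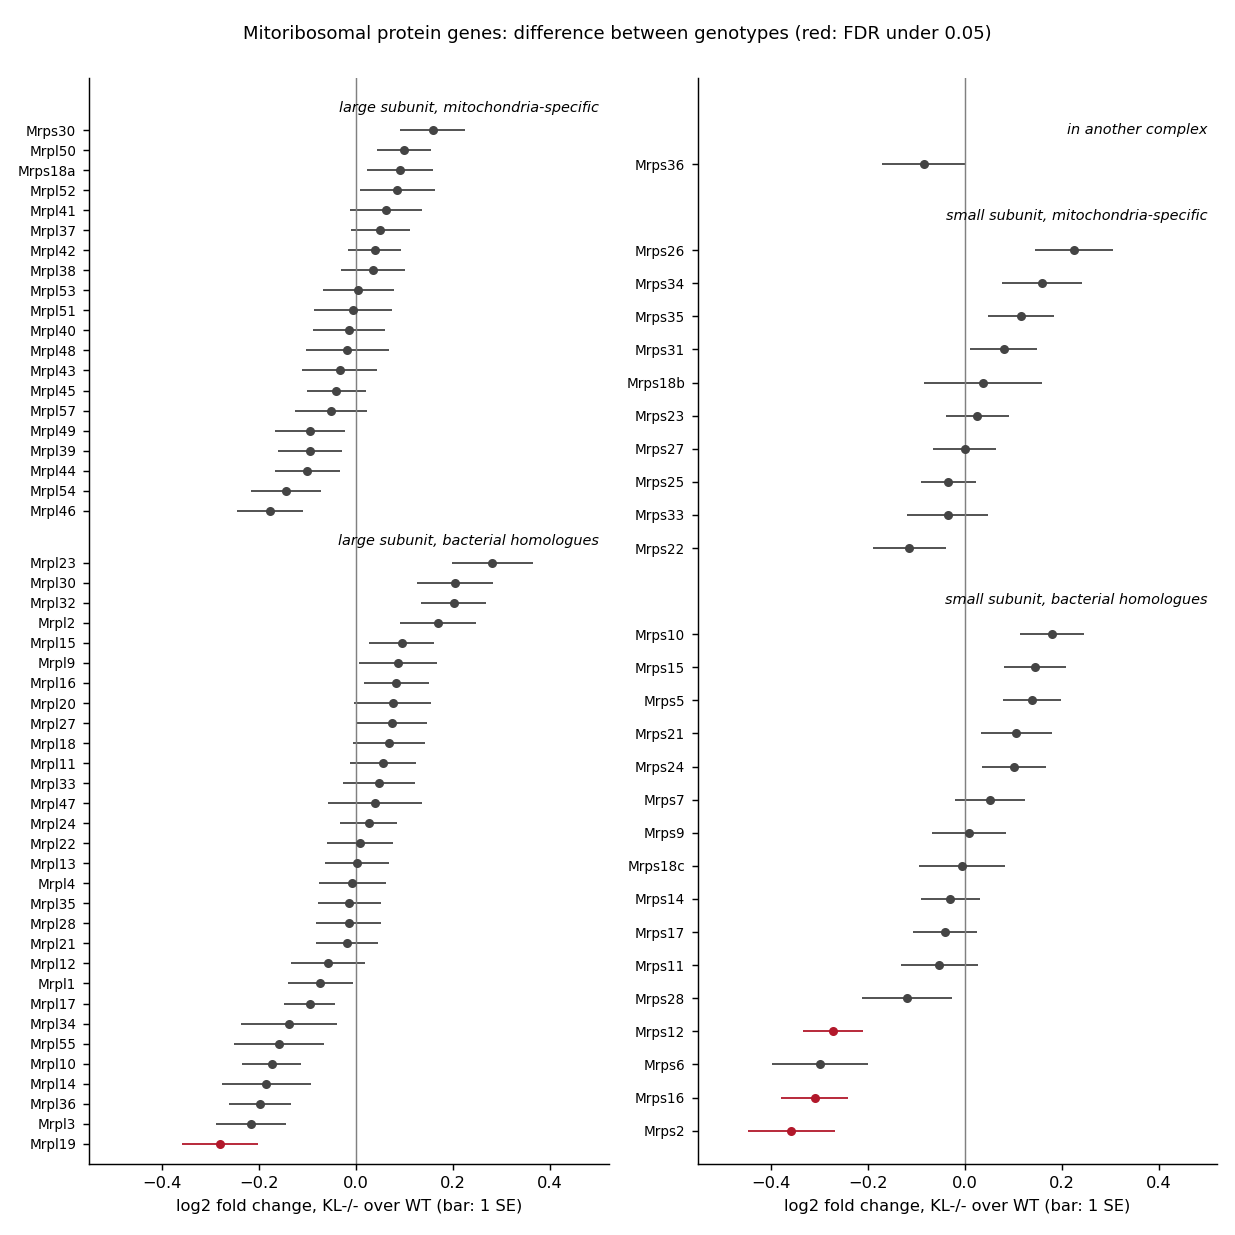
Log2 fold change (KL-/- over WT, x axis) of each of the 77 mitoribosomal protein genes, ordered within structural classes. Points are edgeR estimates with 1 SE, and the 4 genes in red, *Mrps2*, *Mrps16*, *Mrps12* and *Mrpl19*, have an FDR under 0.05 and lie left of 0.

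The 4 genes called lower were 3 of the small subunit, *Mrps16*, *Mrps12* and *Mrps2*, and 1 of the large subunit, *Mrpl19*. *Mrps16*, a small-subunit protein whose loss in humans causes a combined respiratory chain deficiency, measured 29.5, 29.9, 27.5 and 32.0 CPM in WT and 23.6, 22.8, 24.5 and 25.1 CPM in KL-/- libraries. Every KL-/- value lay below every WT value. The means were 29.7 ± 1.86 and 24.0 ± 1.04 CPM (SD, n = 4 each), a log2 fold change of -0.31 (SE 0.069, FDR = 0.0206). *Mrps16* lies on mm10 chromosome 14 from 20391231 to 20393555 on the minus strand.

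*Mrps12*, the homologue of the bacterial decoding-centre protein in which streptomycin resistance arises, measured 26.2, 25.2, 25.2 and 26.6 CPM in WT and 20.2, 22.6, 21.5 and 21.2 CPM in KL-/- libraries. The genotypes were again separate, with little spread in either. The log2 fold change was -0.27 (SE 0.062, FDR = 0.0230), from 25.8 ± 0.693 to 21.4 ± 0.984 CPM (SD, n = 4 each). *Mrps12* lies on chromosome 7 from 28739641 to 28741781 on the minus strand.

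*Mrps2*, a protein at the junction of the small subunit's head and body, measured 25.5, 26.7, 25.2 and 26.4 CPM in WT and 22.5, 22.1, 17.6 and 18.9 CPM in KL-/- libraries. Replicates 3 and 4 of KL-/- muscle were lowest. The log2 fold change of -0.36 (SE 0.089, FDR = 0.0296) was the most negative of the 77, from 26.0 ± 0.724 to 20.3 ± 2.42 CPM (SD, n = 4 each). *Mrps2* lies on chromosome 2 from 28468066 to 28471177 on the plus strand.

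*Mrpl19*, a large-subunit protein with a bacterial homologue, measured 32.1, 32.5, 29.2 and 28.2 CPM in WT and 25.2, 24.4, 23.0 and 27.6 CPM in KL-/- libraries. The groups did not overlap, but the highest KL-/- value lay close to the lowest WT value. The log2 fold change was -0.28 (SE 0.079, FDR = 0.0445), from 30.5 ± 2.14 to 25.1 ± 1.94 CPM (SD, n = 4 each). *Mrpl19* lies on chromosome 6 from 81957842 to 81965949 on the minus strand, and 39.2% of its counted length coincides with exons of *Gcfc2* on the opposite strand. The strand setting of the counting was not given in the sources used here, so reads of these 2 genes may not be told apart. *Gcfc2* itself had a log2 fold change of 0.37 (FDR = 0.213), with means of 3.10 CPM for WT and 4.01 CPM for KL-/-.

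The 4 calls lay near the threshold. With 1 library left out in turn, *Mrps16* kept its call in 6 of 8 fits (FDR 0.0251 to 0.0570), *Mrps2* in 2 (0.0181 to 0.0846), *Mrpl19* in 2 (0.0457 to 0.119) and *Mrps12* in 1 (0.0136 to 0.0637), and each fold change stayed negative. No member was called without WT replicate 2 or without KL-/- replicate 3. The fit without KL-/- replicate 3 is also the one within a single batch date, and there *Mrps16* had a log2 fold change of -0.32 (FDR = 0.0506), *Mrps12* -0.27 (FDR = 0.0610), *Mrps2* -0.29 (FDR = 0.0728) and *Mrpl19* -0.24 (FDR = 0.119). With a correction for gene length, 5 members (6.5%) were called lower and none higher, beside 6.44% and 8.11% of all genes: *Mrpl19* lost its call (-0.26, FDR = 0.0618), and *Mrps6* (-0.34, FDR = 0.0432) and *Mrpl36* (-0.23, FDR = 0.0459) gained one.

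**Figure D2:**
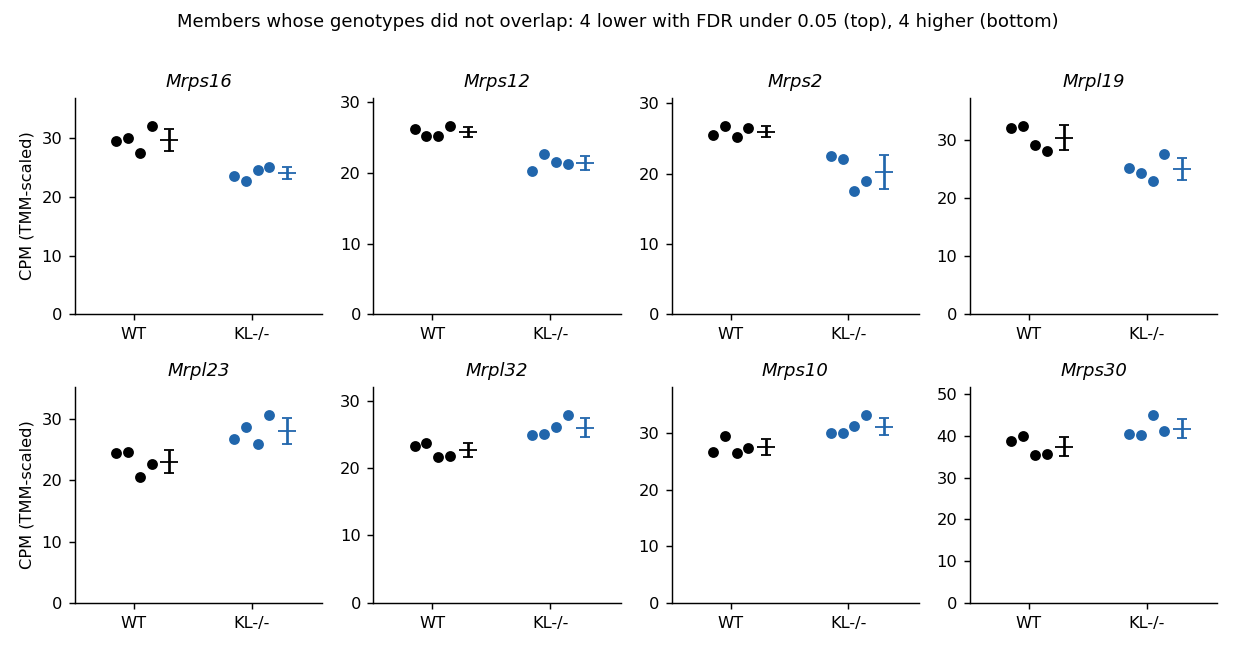
TMM-scaled CPM (y axis, from 0) per library for the 4 genes called lower (top) and the 4 genes whose KL-/- values all lay above WT (bottom). Dots are libraries and bars are means with SD (n = 4), and in each panel the genotypes are separate, with the closest gap seen in *Mrpl19*, *Mrps30* and *Mrps10*.

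Sequence around a transcription start is shown for the 3 called small-subunit genes, since nuclear genes of mitochondrial proteins share a few regulatory motifs. RefSeq windows of 300 bases, from 250 before to 50 after a transcription start on GRCm38.p6 (mm10), were matched by symbol for 68 of the 77 genes. Each was searched on both strands for CCGGAAG (ETS family, which includes the GABP alpha subunit), AAGATGGC (YY1), GCGCATGC (NRF1) and CACGTG (the E-box bound by MYC). The ETS and YY1 strings can overlap, since the first ends and the second starts with AAG. The windows run 5′ to 3′ on the gene's strand, and capitals mark matches on either strand. For *Mrps16* the window of the downstream of 2 starts is shown, at chr14:20393441-20393740 on the minus strand. The others are chr7:28741772-28742071 on the minus strand for *Mrps12* and chr2:28467816-28468115 on the plus strand for *Mrps2*.
Mrps16: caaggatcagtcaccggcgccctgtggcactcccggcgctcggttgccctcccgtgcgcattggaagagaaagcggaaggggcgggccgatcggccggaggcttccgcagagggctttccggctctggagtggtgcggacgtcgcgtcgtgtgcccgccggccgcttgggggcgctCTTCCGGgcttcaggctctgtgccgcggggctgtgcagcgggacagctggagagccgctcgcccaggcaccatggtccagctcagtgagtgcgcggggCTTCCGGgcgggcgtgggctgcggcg
Mrps12: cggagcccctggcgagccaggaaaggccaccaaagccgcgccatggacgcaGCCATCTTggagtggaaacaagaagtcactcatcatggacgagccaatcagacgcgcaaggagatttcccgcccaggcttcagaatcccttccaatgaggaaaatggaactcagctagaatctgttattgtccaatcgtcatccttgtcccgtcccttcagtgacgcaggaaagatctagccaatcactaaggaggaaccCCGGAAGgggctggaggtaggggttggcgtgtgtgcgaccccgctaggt
Mrps2: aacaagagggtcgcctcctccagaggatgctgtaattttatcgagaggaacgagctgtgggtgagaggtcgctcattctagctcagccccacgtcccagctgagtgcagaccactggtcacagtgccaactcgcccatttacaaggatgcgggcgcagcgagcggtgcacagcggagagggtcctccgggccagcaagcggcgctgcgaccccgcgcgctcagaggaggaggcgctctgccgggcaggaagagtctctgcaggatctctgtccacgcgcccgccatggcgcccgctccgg
In the window shown, *Mrps16* held 2 matches to the ETS string, and the window of its other start held none of the 4 strings. *Mrps12* held 1 match to the ETS string and 1 to the YY1 string, and *Mrps2* held none of the 4 strings in its window. *Mrpl19* had no entry.

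Across the matched members, the ETS string occurred in 25 of 68 genes (36.8%), against 19.6% of 9564 counted genes with a window, and in 33.8% of 74 member windows, against 8.86% of 32851 windows in all. The YY1 string occurred in 12 genes (17.6%, against 5.24% of counted genes), the NRF1 string in 8 (11.8%, against 5.96%) and the E-box in 5 (7.35%, against 11.9%). By windows, the YY1 string occurred in 16.2% of member windows against 2.75% of all windows, the NRF1 string in 10.8% against 2.71% and the E-box in 9.46% against 7.15%. The first 3 strings had a higher share among members on both counts, while for the E-box the share was lower by genes and higher by windows. The share by windows counts the same E-box of *Mrpl2* repeatedly. It lies in overlapping windows that start at 46645971, 46645979 and 46645987 on chromosome 17. No test was made. These matches are a description of letters, with no measurement of binding. Transcripts of the factors named did not pass the test, apart from *Myc*. *Nrf1* had a log2 fold change of 0.27 (SE 0.082, FDR = 0.0554), *Gabpa* -0.13 (FDR = 0.183) and *Yy1* 0.070 (FDR = 0.640). *Myc* was higher, from 2.67 ± 0.369 to 6.25 ± 3.54 CPM (log2 fold change 1.21, SE 0.34, FDR = 0.0435, SD, n = 4 each). It measured 2.65, 2.68, 3.13 and 2.22 CPM in WT and 4.57, 11.5, 3.81 and 5.13 CPM in KL-/- libraries. KL-/- replicate 2, the library that stood apart, was far the highest.

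No member passed the threshold in the higher direction, although in 4 of 77 (5.2%) all KL-/- values lay above all WT values, beside 10.2% of all genes. *Mrpl23*, a protein at the exit of the peptide tunnel, came nearest, with 24.4, 24.6, 20.5 and 22.7 CPM in WT and 26.7, 28.6, 25.9 and 30.7 CPM in KL-/- libraries. Its log2 fold change was 0.28 (SE 0.084, FDR = 0.0524), from 23.0 ± 1.89 to 28.0 ± 2.13 CPM (SD, n = 4 each). *Mrpl32*, which an inner-membrane protease must cleave before it joins the ribosome, measured 23.2, 23.8, 21.7 and 21.8 CPM in WT and 24.9, 25.1, 26.1 and 27.9 CPM in KL-/- libraries (log2 fold change 0.20, SE 0.067, FDR = 0.0727). Next came *Mrps10*, a protein of the small subunit's head (0.18, FDR = 0.0938), and *Mrps30* (0.16, FDR = 0.138), 37.8% of whose length coincides with another gene on the opposite strand. In *Mrps26* (0.22, FDR = 0.0912) and *Mrpl30* (0.20, FDR = 0.11), KL-/- replicate 2 lay within the WT range and the other 3 above it. Without that library, *Mrpl30* (0.28, FDR = 0.0106), *Mrps26* (0.30, FDR = 0.0122), *Mrpl2* (0.24, FDR = 0.0190) and *Mrpl32* (0.23, FDR = 0.0499) were called higher (4 members, 5.2%, beside 12.1% of all genes). The same fit called 4 members lower (5.2%, beside 9.83%), namely *Mrps16*, *Mrps12*, *Mrps2* and *Mrpl3* (-0.27, FDR = 0.00973).

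All KL-/- values lay below all WT values in 9 members (11.7%), beside 9.47% of all genes. Beyond the 4 called genes these were *Mrpl36* (log2 fold change -0.20, FDR = 0.0675), *Mrps6* (-0.30, FDR = 0.0733), *Mrpl3* (-0.22, FDR = 0.0734), *Mrpl10* (-0.17, FDR = 0.0830) and *Mrpl46* (-0.18, FDR = 0.11). *Mrpl3*, whose bacterial homologue reaches toward the peptidyl transferase centre, measured 54.7, 54.1, 54.4 and 54.4 CPM in WT and 42.7, 53.4, 45.4 and 46.1 CPM in KL-/- libraries. Its WT libraries were the tightest of any member, with a coefficient of variation of 0.51%, and KL-/- replicate 2 lay close under them. *Mrps6*, with 10.1 ± 0.843 and 8.25 ± 0.687 CPM (SD, n = 4 each), shares 36.5% of its length on the same strand with the gene model Gm49711, and 18.6% with *Slc5a3*, a myo-inositol transporter gene that was lower in KL-/- muscle (log2 fold change -0.74, FDR = 0.0206). How much of the *Mrps6* count comes from *Slc5a3* transcripts was not tested.

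By origin, the 4 called genes all belonged to the 46 members with a bacterial homologue, and none of the 30 members classed as mitochondria-specific was called. Of all genes, 6.67% were called lower and 7.35% higher, shares at which few calls would fall in either class. The mitochondria-specific class includes *Mrps18a* and *Mrps18b*, added paralogs of a protein whose bacterial counterpart is represented by *Mrps18c*. Medians did not separate the classes, at -0.0020 and 0.0020. The spread of log2 fold changes was wider among bacterial homologues (SD 0.150) than among mitochondria-specific members (SD 0.0937). Genotypes were separate in either direction in 11 of 46 against 2 of 30. Of all genes, 10.2% had all KL-/- values above all WT values and 9.47% had all below. The difference between the classes was not tested. Small-subunit and large-subunit transcripts kept their proportion, with 0.371 to 0.375 small-subunit CPM for each large-subunit CPM in WT and 0.373 to 0.379 in KL-/- libraries.

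By place in the ribosome, no region had more than 1 call. The regions hold 5 to 7 listed genes each, and 7.35% of all genes were called higher and 6.67% lower. At such shares, counts of calls in lists this short cannot show a difference between regions. Of the 5 proteins of the stalk, which recruits translation factors, none was called (median -0.058), with *Mrpl10* at -0.17 and *Mrpl54* at -0.14 the lowest. *Mrpl12*, the flexible stalk protein that also binds the mitochondrial RNA polymerase, measured 140.4, 145.4, 134.5 and 140.0 CPM in WT and 130.5, 118.5, 136.9 and 152.2 CPM in KL-/- libraries (-0.058, FDR = 0.632). The KL-/- values spread to both sides of the WT values. The 6 tunnel-exit proteins had a median of 0.017 and the 7 of the central protuberance, where the subunits meet, 0.035, with no call in either. Among 5 proteins lining the decoding site and mRNA channel, *Mrps12* was called lower and the others ranged from -0.12 for *Mrps28* to 0.14 for *Mrps5* (FDR = 0.143). The paralogs *Mrps18a* (0.090), *Mrps18b* (0.037) and *Mrps18c* (-0.0060), which share an ancestor, all had FDR values of at least 0.385. *Mrps18b* had the widest KL-/- spread of all members (coefficient of variation 15.2%), and 60.0% of its length coincides with an antisense gene.

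Levels were compared between genes per length, as CPM per kilobase of the counted gene length. The mean over 8 libraries ranged 75-fold, from 4.04 for *Mrps25* to 302.6 for *Mrpl42*, with a median of 31.7, although most of these proteins are present in a single copy per ribosome. Between 10 and 100 CPM per kilobase lay 66 of the 77 genes. *Mrpl42* stood well above the rest, at 279.5 to 305.9 in WT and 296.7 to 317.5 in KL-/- libraries. *Mrpl12* (144.7), *Mrps21* (138.2) and *Mrpl30* (119.6) followed, then *Mrpl33* (102.9). The library ranges of *Mrpl12*, *Mrps21* and *Mrpl30* overlapped, as did those of *Mrpl30* and *Mrpl33*. The lowest were *Mrps25*, *Mrpl19* (5.55), *Mrpl17* (6.20) and *Mrpl1* (8.59), and the ranges of *Mrpl19* and *Mrpl17* overlapped. Their counted lengths were long, at 6065, 5000, 6712 and 4188 bases, and 75.7% of *Mrps25* coincides with exons of *Nr2c2* on the opposite strand, so a level per length depends on the gene model.

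**Figure D3:**
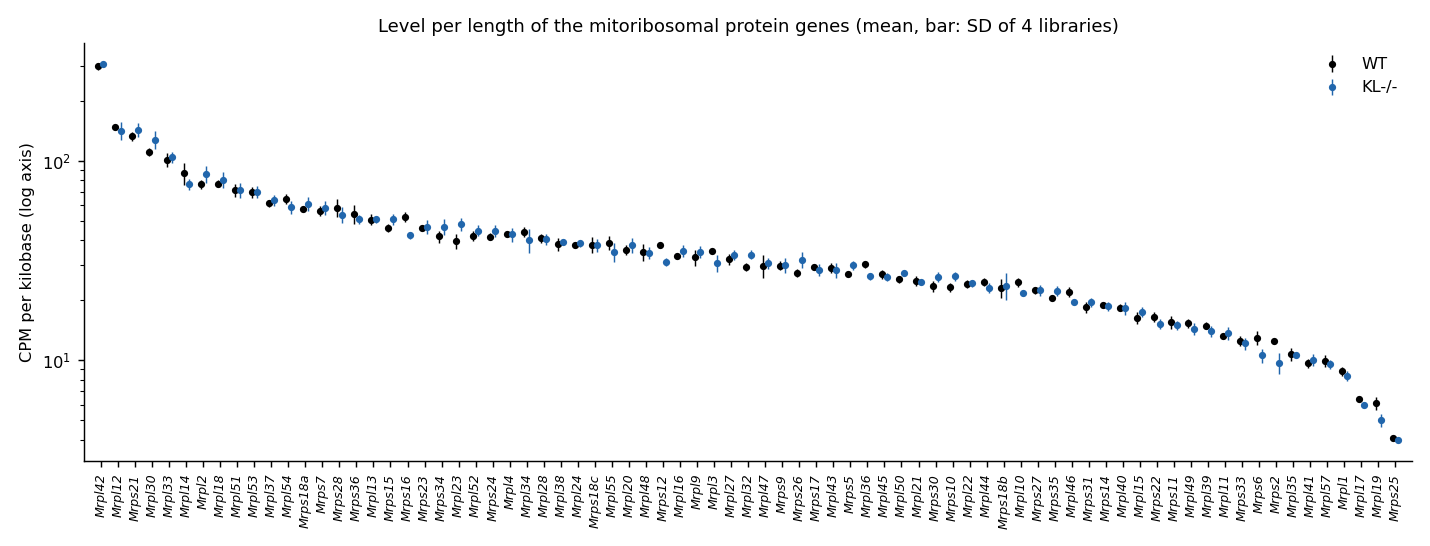
Level per length (CPM per kilobase, log axis) of the 77 genes, ordered from the highest to the lowest. Points are means and bars SD of 4 libraries, WT in black and KL-/- in blue, and the order runs from *Mrpl42* to *Mrps25* with both genotypes close together at nearly every gene.

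Overlap with other genes was not limited to these. Exon bases of 23 members coincided with another annotated gene in GENCODE M21, on the opposite strand in 18 and the same strand in 5. In the 54 members free of such overlap, 3 were called lower and none higher, beside 6.67% and 7.35% of all genes. Their median was 0.0050. *Mrpl53* (0.0047, FDR = 0.971) coincides over its whole counted length with another protein-coding gene model on the same strand. *Mrps34* (0.16, FDR = 0.209) shares 61.9% of its length with *Mapk8ip3* on the opposite strand, which was higher in KL-/- muscle (0.26, FDR = 0.0254).

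The 77 genes lie on 17 chromosomes, with 10 on chromosome 11, and 22 start within 500 bases of a gene transcribed the other way. Of the 18 such partners that were counted, 1 was called, and 6 pairs had fold changes of the same sign. That partner was *Fau*, a cytosolic ribosomal protein gene that starts 59 bases from *Mrpl49*, a large-subunit gene. *Fau* was higher, from 71.2 ± 4.49 to 88.4 ± 4.72 CPM (log2 fold change 0.31, SE 0.066, FDR = 0.0165, SD, n = 4 each). *Mrpl49* measured 27.2, 27.5, 24.6 and 26.5 CPM in WT and 23.0, 26.6, 23.8 and 25.7 CPM in KL-/- libraries (-0.094, FDR = 0.387). The log2 ratio of *Fau* to *Mrpl49* within a library was 1.40 to 1.48 in WT and 1.62 to 2.01 in KL-/- muscle. The *Mrpl49* window is printed, from 250 bases before its start to 50 after it (RefSeq, GRCm38.p6, chr19:6057706-6058005, minus strand). It covers the bases between the 2 starts and reaches into both genes. The YY1 match, in capitals, lies after the *Mrpl49* start.
Mrpl49: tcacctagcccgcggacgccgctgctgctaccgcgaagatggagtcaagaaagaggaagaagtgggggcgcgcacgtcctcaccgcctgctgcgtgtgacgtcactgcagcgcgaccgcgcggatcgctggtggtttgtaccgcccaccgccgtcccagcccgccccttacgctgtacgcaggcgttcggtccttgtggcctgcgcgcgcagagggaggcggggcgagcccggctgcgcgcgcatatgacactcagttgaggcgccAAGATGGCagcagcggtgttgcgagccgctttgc
*Mrps12* starts 172 bases from *Sars2*, the mitochondrial seryl-tRNA synthetase gene, which had a log2 fold change of -0.22 (FDR = 0.127). *Mrpl36* shares its start region with *Ndufs6*, a complex I subunit gene, which stood at 0.014 (FDR = 0.912).

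Cytosolic ribosomal proteins are the counterparts that translate nuclear mRNAs. Of 82 counted genes with cytosolic ribosomal protein symbols, which include a few paralogs and related names, 71 were called higher and none lower, with a median log2 fold change of 0.40 (66 higher, 2 lower and 0.28 when scaled to library totals). *Rpl12* rose by 0.73 (SE 0.059, FDR = 0.00129) and *Rps4x* by 0.58 (SE 0.050, FDR = 0.00129). Cytosolic ribosomal protein genes have many processed copies in the genome, and how reads that match several places were counted was not given in the sources used here. Their CPM summed to 10500 ± 363.9 in WT and 13980 ± 555.3 in KL-/- libraries (SD, n = 4 each), a ratio of 1.331. For each 1000 CPM of cytosolic transcripts, the mitoribosomal genes had 311.2, 311.2, 312.9 and 309.1 CPM in WT and 230.6, 236.5, 236.7 and 236.4 CPM in KL-/- libraries. This ratio does not depend on the scaling of the libraries, its ranges did not overlap, and no test was made on it. Over the 4 WT libraries it varied less than either sum.

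**Figure D4:**
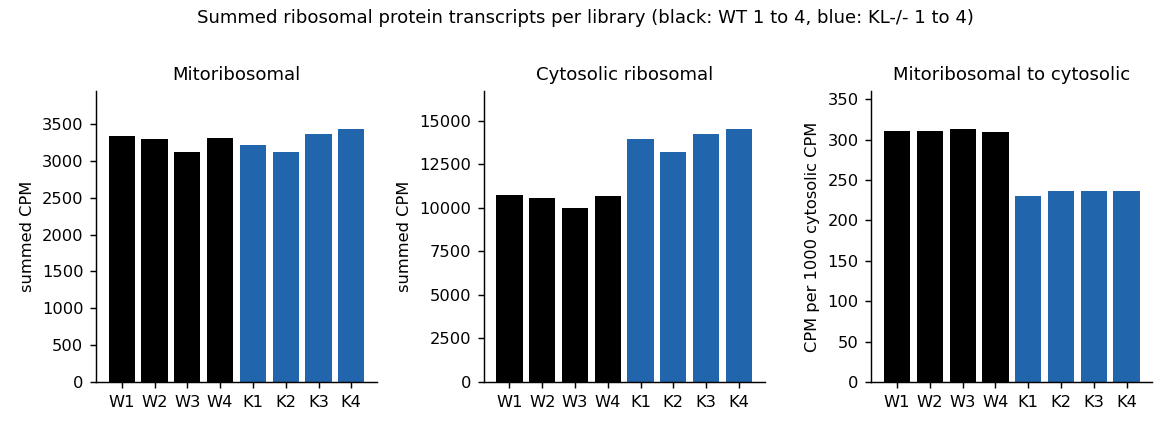
Summed CPM of the 77 mitoribosomal genes (left), of 82 cytosolic ribosomal protein genes (middle), and mitoribosomal CPM per 1000 cytosolic CPM (right), in WT libraries 1 to 4 (W, black) and KL-/- libraries 1 to 4 (K, blue). Bars start at 0; the left panel overlaps between genotypes, and the right panel falls from 309.1 to 312.9 in WT to 230.6 to 236.7 in KL-/- libraries.

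Calls among genes that build, run or accompany the mitoribosome stand beside 7.35% of all genes called higher and 6.67% called lower. Of 5 mitoribosomal proteins with other symbols, *Ptcd3*, a small-subunit RNA-binding protein, was lower (-0.19, SE 0.052, FDR = 0.0431) and *Dap3* stood at 0.19 (FDR = 0.105). Of 14 translation factors, none was higher and *Taco1*, an activator of translation of a mitochondrially encoded cytochrome oxidase subunit, was lower (-0.43, SE 0.070, FDR = 0.00696), from 66.3 ± 2.52 to 49.1 ± 4.19 CPM (SD, n = 4 each). The median of these 14 was -0.14, and 12 were negative. Of 25 assembly and rRNA modification factors (median -0.055), *Rbfa* (0.29, FDR = 0.0381) and *Malsu1* (0.31, FDR = 0.0240), which act on the small and the large subunit, were higher, and *Nsun4*, an rRNA methyltransferase, was lower (-0.32, FDR = 0.0120). Of 20 genes of aminoacyl-tRNA synthesis (median -0.056), *Lars2* was higher (0.40, FDR = 0.0110), from 427.6 ± 17.6 to 563.9 ± 49.8 CPM (SD, n = 4 each). It made up a large part of the list, whose 20 genes summed to 840.5 to 913.4 CPM in WT libraries.

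Of 11 genes of mitochondrial transcription and mRNA handling none was called (median 0.057), and of 9 regulators of mitochondrial biogenesis *Myc* alone was called (median 0.070). Nuclear-encoded subunits of the respiratory chain and ATP synthase, the complexes to which mitoribosomal products belong, had 55 positive values and a median of 0.035. Of these 81 genes 3 were called higher and 1 lower, beside 7.35% and 6.67% of all genes. The calls were *Ndufb11* (0.26, FDR = 0.0333), *Atp5g2* (0.28, FDR = 0.0458) and *Cox6a2* (0.36, FDR = 0.0413), the muscle isoform of a cytochrome oxidase subunit, and *Ndufs4* (-0.20, FDR = 0.0437). None of 13 markers of mitochondrial mass was called (median 0.077), and *Cs*, citrate synthase, stood at 0.047 (FDR = 0.662). When scaled to library totals, the medians of the respiratory subunits and mass markers were -0.082 and -0.042. None of the respiratory subunits was then higher and 5 were lower, beside 3.92% and 16.9% of all genes. With the length correction, 3 respiratory subunits were higher and 4 lower (median -0.016), beside 8.11% and 6.44% of all genes.

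**Figure D5:**
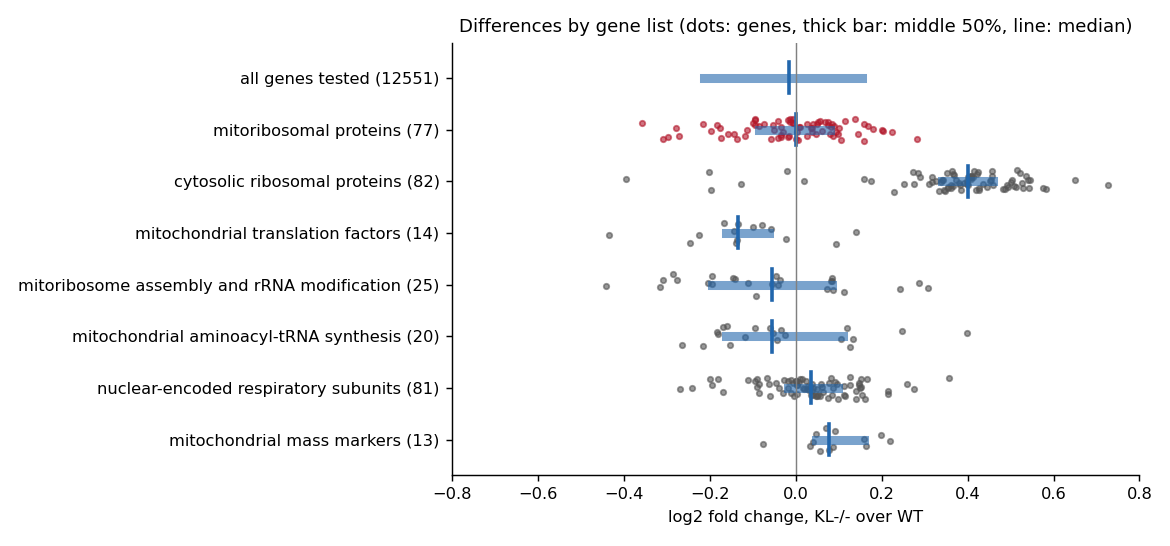
Log2 fold change (KL-/- over WT, x axis) of genes in each list, with the number tested in brackets. Dots are genes, thick bars the middle 50% and lines the median, and cytosolic ribosomal proteins lie around 0.40 while the mitoribosomal genes lie around 0.

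Markers of other cell types differed between the libraries. Summed levels were 57.8 to 102.9 CPM in WT and 107.0 to 132.2 CPM in KL-/- libraries for 7 Schwann cell genes (4 higher), 184.9 to 215.6 and 216.2 to 293.1 CPM for 5 adipocyte genes (1 higher), and 180.7 to 224.5 and 55.3 to 141.8 CPM for 5 tenocyte genes (2 lower). They were 935 to 3768 and 516 to 1690 CPM for 8 fibroblast genes (3 lower), 37.9 to 90.1 and 27.8 to 55.4 CPM for 8 macrophage genes (2 lower), 507 to 737 and 490 to 518 CPM for 8 endothelial genes (1 lower), and 326 to 509 and 367 to 453 CPM for 6 pericyte and smooth muscle genes (no call). By two-sided exact permutation over 70 relabelings, adjusted over 8 lists, no total fell under 0.05 (adjusted p = 0.0571 for myofibre, adipocyte, Schwann and tenocyte totals, whose unadjusted 0.0286 is the smallest that 4 against 4 can give). The part of these cell types in the values above was not tested.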

How the data were processed

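RNA of whole TA muscle (mRNA per the methods, total RNA per the labels) was sequenced. The authors used STAR for alignment to mm10, dropped poorly mapped reads and took gene counts from featureCounts. The deposited values are raw counts, limited to expressed genes, with gene positions and lengths. The annotation release and strand setting are not given in the sources used here. Genotypes and replicate numbers came from the labels.

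The analysis used edgeR 4.0.16 under R 4.3.3 (TMM factors, genotype only, quasi-likelihood test). Its default filter kept all 12551 genes, and Benjamini-Hochberg adjustment ran over all of them at an FDR under 0.05. CPM are scaled by TMM factors. The test was checked on simulated counts. Exon overlap used GENCODE M21. The counts of 20860262 to 29273758 per library set the counting error, and libraries of a genotype differed by more than that error.

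Alternatives were RLE factors, library totals, DESeq2 1.42.0, edgeR 3's quasi-likelihood test, limma-voom (limma 3.58.1), a minimum of 10 counts in every library, no filter, the replicate number as a block, a length correction (loess span 0.3), each library left out, and, chosen after seeing the data, members free of shared exon bases. Members and lists were chosen with earlier results of these data known. Named members are those called, the 5 largest and 5 smallest fold changes, the 4 highest and lowest levels, those of the place lists, *Mrps18a*, *Mrps18b*, *Mrps18c*, *Mrps30* and *Mrps36*, and up to 10 with separate genotypes. Of the other lists, up to 4 called genes each are named. *Mrpl2*, *Mrpl49*, *Mrps34*, *Dap3*, *Nrf1*, *Gabpa*, *Yy1*, *Cs* and genes that overlap or neighbour a member were named after their values were seen.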

Additional observations from a re-analysis of the deposited data

Results flagged for a closer look

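Of 84 groups of 4 libraries checked for a library far from the others, 5 were picked out by Dixon's 95% criterion, where chance gives about 1 in 20. *Mrpl10* measured 44.5 CPM in WT replicate 1, against 40.1 to 40.7 CPM in the other WT libraries. *Mrpl17* measured 42.0 CPM in KL-/- replicate 2, against 39.5 to 39.9 CPM. *Mrpl36* measured 25.3 CPM in KL-/- replicate 1, against 23.1 to 23.4 CPM. *Mrpl42* measured 186.2 CPM in WT replicate 3, against 202.1 to 203.7 CPM. *Mrpl47* measured 31.2 CPM in WT replicate 4, against 23.8 to 24.6 CPM. The 5 values lie in 5 different libraries, and none of these genes was called.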

How the results depend on the processing

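Scaled to library totals, 492 genes were called higher and 2127 lower (18.8% of calls higher, against 52.4%), 16 members and 28 companion-list genes were lower, and the members' median was -0.12. DESeq2 gave 1 member higher and 8 companion genes lower, and RLE factors and limma-voom each 1 member higher. With the replicate number as a block, 348 genes were higher, 323 lower, 0 members lower and 1 companion gene lower. Libraries with the same number deviated from their genotype means with r = -0.15, 0.18, -0.37 and 0.017. With different numbers r was -0.29 to 0.30, so whether equal numbers mark littermates cannot be told from these values. With 1 library left out in turn, 404 to 1521 genes were higher and 343 to 1234 lower, 68 to 92 companion genes higher and 2 to 5 lower, 0 to 4 members higher and 0 to 4 lower, and the median was -0.019 to 0.032.

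Changes of sign concerned uncalled members, 33 of the 77 over the alternative settings that kept all libraries. Values follow for those among the 42 named members. They were *Mrps18c* with DESeq2 (0.0027) and RLE factors (0.0019). With the length correction they were *Mrpl22* (-0.042), *Mrpl24* (-0.00094), *Mrpl42* (-0.020), *Mrpl52* (-0.023), *Mrpl53* (-0.061) and *Mrps21* (-0.0048). With library totals they were, among the named, *Mrpl11* (-0.063), *Mrpl18* (-0.050), *Mrpl22* (-0.11), *Mrpl24* (-0.093), *Mrpl27* (-0.044), *Mrpl38* (-0.082), *Mrpl42* (-0.080), *Mrpl47* (-0.080), *Mrpl52* (-0.033), *Mrpl53* (-0.11), *Mrps18a* (-0.028), *Mrps18b* (-0.081), *Mrps21* (-0.013), *Mrps24* (-0.017) and *Mrps35* (-0.0024). With a library left out, 8 of 42 named members changed sign: *Mrpl48* (-0.065 to 0.040), *Mrps18c* (-0.050 to 0.044), *Mrpl22* (-0.019 to 0.033), *Mrpl47* (-0.00041 to 0.14), *Mrpl53* (-0.033 to 0.056), *Mrps18b* (-0.031 to 0.14), *Mrpl40* (-0.049 to 0.033) and *Mrpl12* (-0.12 to 0.0068). The causes were not tested.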
